A study of Mus musculus with 25 samples.

Results

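The mouse Fc gamma receptors were examined as 5 genes of the 54532 in the deposited gene table. They were taken by their symbols, with earlier results of these data known. Fcgr1, Fcgr3 and Fcgr4 encode activating receptors for immunoglobulin G, Fcgr2b encodes the inhibitory receptor, and Fcer1g encodes the FcR gamma chain that the activating receptors need. The samples were cortex from 25 mice in 5 groups of 5. They were 5xFAD mice given vehicle (5xFAD Veh), a low dose (5xFAD Low P) or a high dose (5xFAD High P) of a natural product derivative that the labels call P, and wild-type mice given the high dose (WT High P) or vehicle (WT Veh). The 5xFAD line carries mutated human transgenes under Thy1 regulatory sequences, which drive them in neurons, so the transgenes themselves are not placed in microglia. The labels do not state the identity of P, its amount and duration, or the strain and the age of the mice. The design asks what the transgenes do to cortical transcript levels, and whether P changes them in 5xFAD and in WT mice.

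Fc gamma receptors bind the constant part of IgG. The activating receptors carry no signalling motif of their own and rely on the FcR gamma chain, whose immunoreceptor tyrosine-based activation motif (ITAM) is phosphorylated by Src-family kinases and recruits Syk, leading to engulfment, oxidative burst and cytokine release. Fcgr2b instead holds an inhibitory motif (ITIM) that recruits the lipid phosphatase SHIP, encoded by Inpp5d, and damps signals from activating receptors that are engaged together with it. In brain these receptors are best known from microglia and from macrophages at the brain borders, which can take up antibody-bound material through them.

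The family's genes sit in a cluster except for Fcgr1. In the mm10 coordinates of the table, Fcgr2b (ENSMUSG00000026656) spans chr1:170958617-170976547, Fcgr4 (ENSMUSG00000059089) chr1:171018920-171029761, Fcgr3 (ENSMUSG00000059498) chr1:171051174-171064935 and Fcer1g (ENSMUSG00000058715) chr1:171229572-171234365, and Fcgr1 (ENSMUSG00000015947) lies at chr3:96282909-96293969. All are annotated as protein-coding, Fcgr4 on the plus strand and the rest on the minus strand. The 250 bases before the RefSeq transcription start (GRCm38.p6, 5′ to 3′ on the gene's strand) are printed for the 4 genes that were higher in 5xFAD cortex, because members that change together can be compared there. Capitals mark TTCCTC, the reverse complement of GAGGAA, a core bound by the myeloid transcription factor PU.1, and TTCNNNGAA, the pattern of an interferon-gamma activation site. Both were searched on both strands, and the matches do not overlap.
Fcgr1, chr3:96293970-96294219, minus strand: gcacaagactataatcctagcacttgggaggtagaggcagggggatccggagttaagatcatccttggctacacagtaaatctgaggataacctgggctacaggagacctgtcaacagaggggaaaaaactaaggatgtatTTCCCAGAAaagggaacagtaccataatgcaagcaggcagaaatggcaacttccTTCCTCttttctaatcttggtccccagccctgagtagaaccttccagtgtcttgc
Fcgr3, chr1:171059404-171059653, minus strand: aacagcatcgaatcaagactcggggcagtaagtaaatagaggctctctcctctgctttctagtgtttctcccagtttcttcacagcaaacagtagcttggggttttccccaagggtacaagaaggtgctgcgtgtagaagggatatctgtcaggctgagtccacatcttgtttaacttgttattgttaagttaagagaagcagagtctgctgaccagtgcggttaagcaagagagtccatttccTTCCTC
Fcgr2b, chr1:170976072-170976321, minus strand: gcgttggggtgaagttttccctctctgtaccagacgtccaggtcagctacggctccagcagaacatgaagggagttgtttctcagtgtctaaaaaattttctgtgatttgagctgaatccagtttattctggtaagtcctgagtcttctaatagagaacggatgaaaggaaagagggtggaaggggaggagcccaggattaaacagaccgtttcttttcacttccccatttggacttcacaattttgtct
Fcer1g, chr1:171234350-171234599, minus strand: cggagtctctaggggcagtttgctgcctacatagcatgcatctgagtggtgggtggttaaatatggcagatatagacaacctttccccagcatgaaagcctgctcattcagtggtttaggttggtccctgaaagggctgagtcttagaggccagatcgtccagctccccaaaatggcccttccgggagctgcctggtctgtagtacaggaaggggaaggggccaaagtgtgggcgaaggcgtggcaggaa
GAGGAA was found once in each of the Fcgr1, Fcgr3 and Fcgr4 windows and not in those of Fcgr2b and Fcer1g. TTCNNNGAA was found in the Fcgr1 window alone among the 5, from 109 to 101 bases before the start. Over 27018 RefSeq promoter windows of the same length, 23.1% held GAGGAA, 7.18% held TTCNNNGAA and 1.64% held both. The Fcgr3 and Fcgr2b windows lie inside the spans that the table gives to these genes, and the Fcer1g and Fcgr4 windows reach into theirs by a few bases, since the starts of the table and of RefSeq differ; the Fcgr1 window ends where the table's span begins. A match is a description of letters and not a demonstration of binding.

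Fcgr2b and Fcgr3 share sequence, and this bears on how far their levels can be separated. Their longest identical run is 129 bases, all of it coding, in exons 3 and 4 of a GENCODE transcript of Fcgr3 (chr1:171054167-171057792, intron included) and of one of Fcgr2b (chr1:170966674-170968081, intron included), both on the minus strand. It is printed to show the stretch from which reads can fit either gene.
Fcgr3 and Fcgr2b, shared run: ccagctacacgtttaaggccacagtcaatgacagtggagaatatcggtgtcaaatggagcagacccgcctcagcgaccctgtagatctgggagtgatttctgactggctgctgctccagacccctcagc
Stretches of 50 bases found in both genes made up 10.2% of the distinct stretches of that length in Fcgr3 transcripts and 4.48% of those in Fcgr2b transcripts, and at 100 bases the shares were 2.7% and 1.14%. No other pair of the 5 genes shared a stretch of 50 bases, and the longest run in any other pair was 14 bases. The sources do not say how the authors' counting treated reads that fit both genes, so the separate levels of Fcgr2b and Fcgr3 are uncertain to that extent. The annotated antisense gene over Fcgr2b, Gm38204, was at 0 reads in all 25 libraries, Gm26110 inside Fcgr4 was likewise at 0, and the microRNA gene Mir6546 inside Fcgr3 had at most 4 reads in a library.

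The table holds FPKM, fragments per kilobase of gene scaled to each library's total. Each value came back as a whole number of reads once the gene length was multiplied in, and the libraries then held 15518358 to 17698222 reads. Thy1, whose sequences the transgenes carry, stood at 458 ± 78.0 FPKM in 5xFAD Veh, 483 ± 123 in 5xFAD Low P, 462 ± 38.6 in 5xFAD High P, 185 ± 7.48 in WT High P and 155 ± 15.6 in WT Veh (SD, n = 5 each), and the lowest 5xFAD library had 341 FPKM against 196 FPKM in the highest WT library. The cortical neuron marker Slc17a7 ran from 124 to 372 FPKM. The Ttr level, a choroid plexus transcript, exceeded 10 times its median in 5 libraries, which were 5xFAD High P replicates 1 and 4, WT High P replicates 1 and 2 and WT Veh replicate 1. Each group held 3 males, replicates 1 to 3, and 2 females by Xist and Y-linked transcripts, so that sex and replicate number cannot be told apart.

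**Figure D1:**
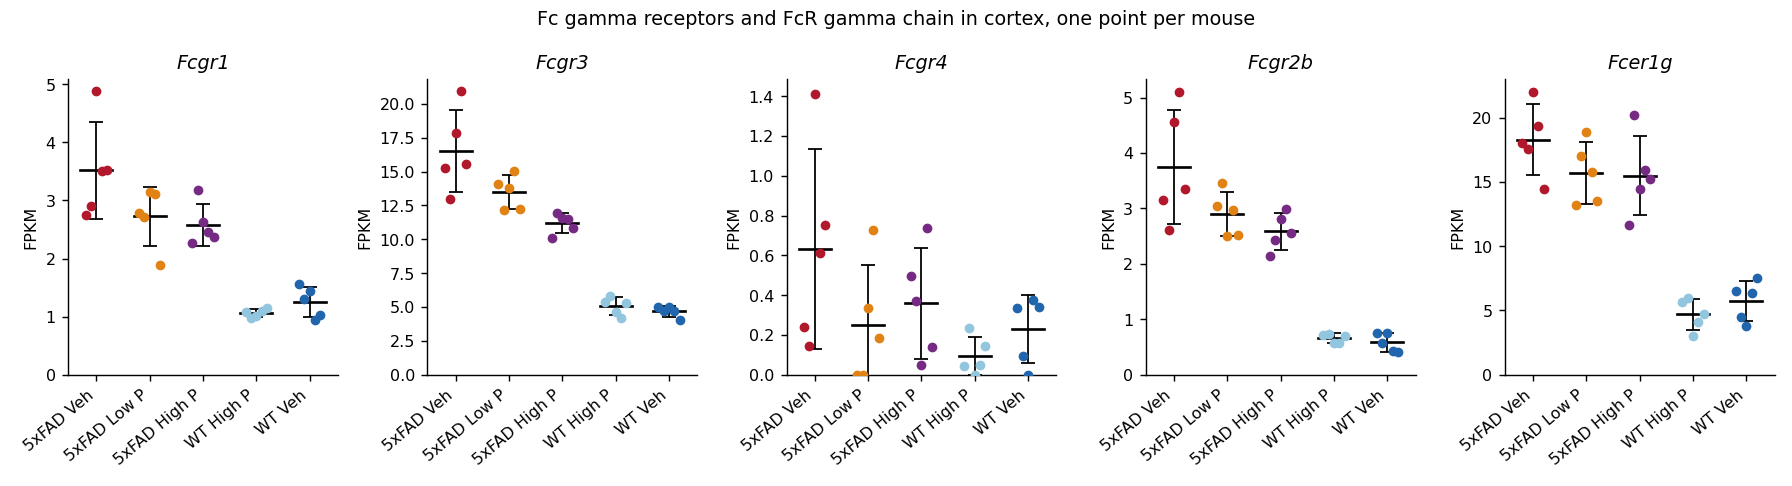
FPKM (linear axes from 0, one scale per gene) of Fcgr1, Fcgr3, Fcgr4, Fcgr2b and Fcer1g in every mouse, with the horizontal bar at the group mean and the error bar at 1 SD (cut at 0). For all but Fcgr4, the 15 5xFAD mice lie above the 10 WT mice.

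Levels per length placed Fcer1g and Fcgr3 highest. In 5xFAD Veh cortex Fcer1g averaged 18.3 ± 2.77 FPKM, Fcgr3 16.5 ± 3.02, Fcgr2b 3.75 ± 1.03, Fcgr1 3.52 ± 0.840 and Fcgr4 0.632 ± 0.503. In WT Veh cortex the means were 5.73 ± 1.54 FPKM for Fcer1g, 4.69 ± 0.404 for Fcgr3, 1.25 ± 0.262 for Fcgr1, 0.580 ± 0.171 for Fcgr2b and 0.229 ± 0.169 for Fcgr4. The neighbours Fcer1g and Fcgr3 did not separate, since Fcer1g was the higher of the pair in 3 of 5 mice of each of these groups, as in 2 of 5 WT High P mice, while it was the higher in 4 of 5 5xFAD Low P and 5 of 5 5xFAD High P mice. Fcgr1 and Fcgr2b also overlapped in 5xFAD Veh, where Fcgr1 was the higher in 3 of 5 mice, whereas in WT Veh and in WT High P Fcgr1 was the higher in 5 of 5. The table's gene lengths for Fcgr2b (5790 bases), Fcgr3 (1736) and Fcer1g (874) exceed the longest GENCODE M21 transcripts (3544, 1347 and 683 bases), so that levels between genes depend on the length used.

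Under vehicle, 4 of the 5 genes rose in 5xFAD cortex against WT cortex, Fcgr2b, Fcgr3, Fcer1g and Fcgr1, by 2.81-fold to 6.47-fold in mean FPKM. Genes called higher made up 2.83% of the 16450 tested, and the median log2 fold change was 1.62 over the 5 members and -0.02 over all genes tested. Tests were limma's on log2(FPKM + 0.5) across all groups, with Benjamini-Hochberg adjustment over all genes tested and a call at an adjusted p under 0.05. The pseudocount shrinks the fold changes of low genes.

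Fcgr1, the high-affinity activating receptor, stood at 2.76, 2.91, 4.89, 3.51 and 3.53 FPKM in the 5xFAD Veh mice, against 1.55, 1.31, 1.44, 0.937 and 1.03 FPKM in the WT Veh mice. Every 5xFAD value exceeded every WT value, with 5xFAD Veh replicate 3 the highest. The log2 fold change was 1.19 (SE 0.135, adjusted p = 1.50e-06).

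Fcgr3, a low-affinity activating receptor, stood at 15.3, 13, 17.9, 21.0 and 15.6 FPKM in 5xFAD Veh, against 5.01, 4.73, 4.99, 4.70 and 4.02 FPKM in WT Veh. These rest on 374 to 569 reads in a 5xFAD Veh library and 115 to 147 in a WT Veh library. The groups lie far apart, the WT mice spreading over about 1 FPKM, and the log2 fold change was 1.70 (SE 0.105, adjusted p = 9.68e-11), the 4th smallest p of the 16450 genes.

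Fcgr4, an activating receptor for IgG2 subclasses known best from monocytes and neutrophils of the mouse, was barely sampled. Its FPKM was 0.241, 0.144, 1.41, 0.611 and 0.752 in 5xFAD Veh, against 0.335, 0.0961, 0, 0.377 and 0.338 in WT Veh, from 65 reads in all 5xFAD Veh libraries together and 24 in all WT Veh libraries. The groups overlap, and the log2 fold change of 0.56 (SE 0.292, adjusted p = 0.496) was not called. It was 0.34 without 5xFAD Veh replicate 3, the highest of these mice, and between 0.37 and 1.55 under other settings. The gene reached 0.5 FPKM in exactly 5 libraries, all 5xFAD, and so entered the test only through the genotype in which it was higher. Over the 25 libraries it had between 0 and 29 reads, and a count of 0 allows up to 0.133 to 0.144 FPKM in the 4 libraries that had none, which covers counting error only.

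Fcgr2b, the inhibitory receptor, stood at 3.16, 2.62, 4.55, 5.09 and 3.34 FPKM in 5xFAD Veh, against 0.757, 0.563, 0.753, 0.419 and 0.408 FPKM in WT Veh. The lowest 5xFAD mouse was well above the highest WT mouse, and 5xFAD Veh replicates 3 and 4, which were also the highest for Fcgr3, stood above the other three. The log2 fold change was 1.96 (SE 0.140, adjusted p = 8.745e-10), and 2.685 when the recovered reads were tested with limma voom, which adds no 0.5 FPKM.

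Fcer1g, the shared signalling chain, stood at 18.0, 17.5, 22.0, 19.4 and 14.5 FPKM in 5xFAD Veh, against 6.52, 4.49, 3.78, 6.36 and 7.49 FPKM in WT Veh. The groups did not overlap, although the WT mice spread more for this gene than for Fcgr3, and the log2 fold change was 1.62 (SE 0.177, adjusted p = 8.51e-07). The 4 called genes were also those whose groups did not overlap, and 3.02% of all tested genes were higher without overlap in this comparison. In bulk tissue, more cells of a type and more RNA per cell cannot be told apart. Microglia markers moved with these genes: 7 of 12 rose and none fell. The summed FPKM of these markers was 243 to 292 in 5xFAD Veh and 102 to 138 in WT Veh. Their part in the result was not tested.

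Under the high dose, in mice that the vehicle comparison did not use, the same 4 genes were called higher in 5xFAD than in WT, where 1.5% of genes tested were called higher. Fcgr1 stood at 2.26, 3.17, 2.63, 2.46 and 2.38 FPKM in 5xFAD High P, against 1.07, 0.974, 1.00, 1.09 and 1.15 FPKM in WT High P, a log2 fold change of 0.98 (SE 0.135, adjusted p = 6.27e-05). Fcgr3 stood at 10.1, 11.9, 11.6, 11.5 and 10.8 FPKM in 5xFAD High P, against 5.38, 5.845, 4.60, 4.17 and 5.28 FPKM in WT High P, a log2 fold change of 1.08 (SE 0.105, adjusted p = 3.75e-07). Fcgr2b stood at 2.14, 2.435, 2.80, 2.99 and 2.555 FPKM in 5xFAD High P, against 0.723, 0.740, 0.574, 0.569 and 0.699 FPKM in WT High P, a log2 fold change of 1.41 (SE 0.140, adjusted p = 4.90e-07). For all of these the lowest 5xFAD mouse exceeded the highest WT mouse. Fcer1g stood at 11.7, 20.2, 14.5, 15.9 and 15.2 FPKM in 5xFAD High P, against 5.63, 5.97, 3.04, 4.10 and 4.70 FPKM in WT High P, a log2 fold change of 1.635 (SE 0.177, adjusted p = 1.47e-06). These 4 genes were again the ones with no overlap, as were 3.22% of all genes in this direction, and Fcgr4 was not called (log2 fold change 0.48, adjusted p = 0.622).

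**Figure D2:**
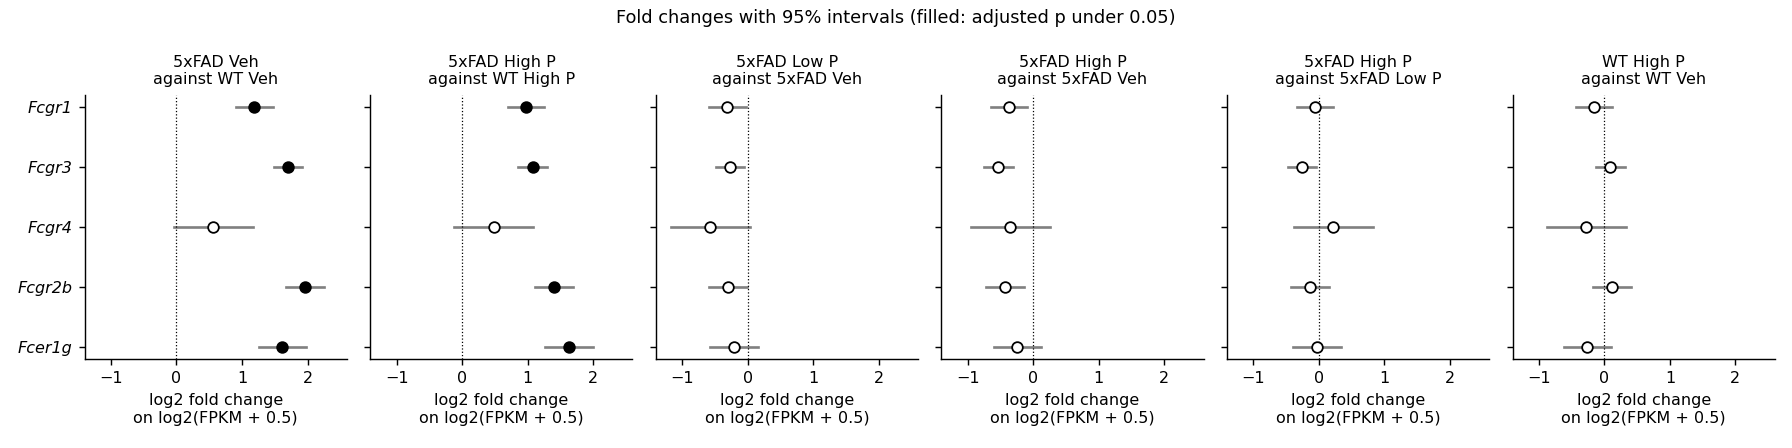
Log2 fold changes on log2(FPKM + 0.5) with 95% intervals for the 5 genes in 6 comparisons, first-named group minus the second. Filled points passed an adjusted p under 0.05: 4 of 5 in each genotype comparison and 0 of 5 in each comparison of doses.

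Within 5xFAD mice, P was set against vehicle at both doses, and no member was called at either. At the high dose all 5 fold changes were below 0, as were 49.4% of all genes tested. Called genes were 0.00608% of those tested, 1 gene that is no member, and 983 genes, among them 3 of the 5 members, had an unadjusted p under 0.05. On the recovered reads limma voom called 0 genes in this comparison. Fcgr3 stood at 10.1 to 11.9 FPKM in 5xFAD High P, entirely below the 13 to 21.0 FPKM of 5xFAD Veh; 0.699% of genes tested were lower without overlap. Its log2 fold change was -0.53 (SE 0.105, 95% interval -0.75 to -0.31, unadjusted p = 3.96e-05, adjusted p = 0.325), the 2nd smallest p in that comparison. By sex, the 3 males lay at 10.1 to 11.9 FPKM under high P and at 13 to 17.9 under vehicle, and the 2 females at 11.5 and 10.8 under high P and at 21.0 and 15.6 under vehicle.

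The Fcgr3 difference was called when 5xFAD Veh replicate 2, the lowest vehicle mouse, was left out (log2 fold change -0.61, adjusted p = 0.0416) and in none of the other 36 settings tried, over which the adjusted p ran from 0.173 to 0.9995. Without the 5 libraries high in Ttr, 2 of them 5xFAD High P, it was -0.50. Fcgr2b was 2.14 to 2.99 FPKM in 5xFAD High P and 2.62 to 5.09 in 5xFAD Veh, with 3 of 5 high-dose mice below the lowest vehicle mouse (log2 fold change -0.44, SE 0.140, unadjusted p = 0.00487, adjusted p = 0.780). Fcgr1 was 2.26 to 3.17 FPKM in 5xFAD High P and 2.76 to 4.89 in 5xFAD Veh, with 4 of 5 below the lowest vehicle mouse (log2 fold change -0.37, SE 0.135, unadjusted p = 0.0117, adjusted p = 0.780). The intervals of Fcer1g (log2 fold change -0.24, interval -0.605 to 0.125) and Fcgr4 (-0.35, -0.95 to 0.25) included 0. Microglia markers moved the same way in value, 12 of 12 below 0 with a median of -0.30 and none called, with a summed FPKM of 183 to 249 in 5xFAD High P and 243 to 292 in 5xFAD Veh. Markers of other cells differed in direction, none called. Of the cortical excitatory neuron markers, 6 of 6 were above 0 (median 0.24). They summed to 769 to 882 FPKM in 5xFAD High P and 594 to 803 in 5xFAD Veh. All 4 tested of 6 choroid plexus markers were above 0 (median 0.70). They summed to 48.8 to 923 FPKM in 5xFAD High P (median 56.7) and 40.9 to 82.1 in 5xFAD Veh (median 59.9). The 5xFAD High P libraries high in Ttr were replicates 1 and 4. Of the markers tested, 2 of 2 of neutrophils (median -0.26), 1 of 1 of T and natural killer cells and 1 of 2 of monocytes were below 0. So were 2 of 4 of border macrophages, 0 of 1 of B and plasma cells and 0 of 1 of mast cells. Mitochondrial reads made up 4.57% ± 0.470 of a library in 5xFAD High P and 5.50% ± 1.12 in 5xFAD Veh. The part of these in the result was not tested.

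At the low dose all 5 fold changes were again below 0, as were 53.2% of all genes, and 0% of genes were called by limma, with 491, among them 3 of the 5 members, at an unadjusted p under 0.05, 0 called by limma voom and 2 called when no filter on low values was applied. Fcgr3 stood at 14.1, 12.2, 13.8, 15.1 and 12.3 FPKM in 5xFAD Low P, of which 2 lay below the lowest 5xFAD Veh mouse, with a log2 fold change of -0.27 (SE 0.105, unadjusted p = 0.0160, adjusted p = 1). The other fold changes were -0.31 for Fcgr1, -0.30 for Fcgr2b, -0.57 for Fcgr4 and -0.21 for Fcer1g. The Fcgr4 value was -0.35 without 5xFAD Veh replicate 3 and between -2.025 (limma voom) and -0.34 (array weights) under other settings. Both doses share the vehicle mice, so that their values are not independent. The slope of log2(FPKM + 0.5) on GC content, per 10 percentage points, was 0.0660 to 0.448 in 5xFAD Veh. It was 0.0400 to 0.493 in 5xFAD Low P and 0.2415 to 0.512 in 5xFAD High P. In 5xFAD Low P, replicates 1 and 2 had slopes of 0.0400 and 0.0422 and mitochondrial shares of 6.69% and 6.835%. Replicates 3 to 5 had 0.347 to 0.493 and 3.63% to 4.62%. With a GC correction still no member was called, and the part of the mitochondrial share was not tested. Set directly against the low dose, the high dose gave no call among the members or among all genes (0% by limma, 0 by limma voom, 1019 genes at an unadjusted p under 0.05). There Fcgr3 was lower in every high-dose mouse, 10.1 to 11.9 FPKM in 5xFAD High P and 12.2 to 15.1 in 5xFAD Low P (log2 fold change -0.26, SE 0.105, adjusted p = 0.773), and 0.395% of genes were lower without overlap. Over vehicle and both doses the means of Fcgr3 ran 16.5 ± 3.02, 13.5 ± 1.25 and 11.2 ± 0.745 FPKM in 5xFAD Veh, Low P and High P. For Fcgr2b they ran 3.75 ± 1.03, 2.90 ± 0.402 and 2.585 ± 0.330 FPKM, for Fcgr1 3.52 ± 0.840, 2.73 ± 0.505 and 2.58 ± 0.358, and for Fcer1g 18.3 ± 2.77, 15.7 ± 2.40 and 15.5 ± 3.08, and for these 3 genes the low and the high dose differed by less than their spread.

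In WT mice the high dose gave no call among the 5 genes, none of them with an unadjusted p under 0.05, in a comparison where 3.17% of genes tested were called. That background is unstable, with between 0 and 3371 genes called under other settings. The WT libraries also differed as libraries: the slope of log2(FPKM + 0.5) on a gene's GC content was 0.432 to 0.573 per 10 percentage points in WT High P and 0.0313 to 0.405 in WT Veh, and mitochondrial reads made up 3.96% to 4.71% in WT High P and 5.89% to 6.64% in WT Veh. Neither measure overlapped between these groups, which also enter the interaction. With a GC correction 14 genes were called in this comparison and still no member, and the part of the mitochondrial share was not tested. Fcgr3 averaged 5.05 ± 0.667 FPKM in WT High P and 4.69 ± 0.404 in WT Veh (log2 fold change 0.09, adjusted p = 0.594), and Fcgr2b averaged 0.661 ± 0.0829 in WT High P and 0.580 ± 0.171 in WT Veh (log2 fold change 0.12, adjusted p = 0.620). Fcgr1 was at -0.16 and Fcer1g at -0.26, with intervals that included 0. The interaction asks whether the change with high P differed between 5xFAD and WT mice, and 0% of genes were called for it by limma and 0 by limma voom (1138 at an unadjusted p under 0.05). Fcgr3 had a difference of differences of -0.62 on the log2 scale (SE 0.149, unadjusted p = 0.00034, adjusted p = 0.602) and Fcgr2b one of -0.55 (SE 0.198, adjusted p = 0.7099). The values for Fcgr1 (-0.21), Fcgr4 (-0.075) and Fcer1g (0.017) had intervals that included 0.

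Among proportions within a mouse, which do not depend on how a library is scaled, those taken over Fcgr2b lay apart by genotype. The ratio of Fcgr3 to Fcgr2b, the activating to the inhibitory receptor, lay between 3.51 and 5.52 in the 15 5xFAD mice (median 4.67) and between 6.63 and 11.2 in the 10 WT mice (median 7.73). The groups were at 4.50 ± 0.459 in 5xFAD Veh, 4.72 ± 0.752 in 5xFAD Low P and 4.36 ± 0.437 in 5xFAD High P, and at 7.65 ± 0.296 in WT High P and 8.54 ± 2.02 in WT Veh. The genotypes did not overlap and the 3 5xFAD groups did. The ratio of Fcgr1 to Fcgr2b was 0.689 to 1.303 in 5xFAD mice and 1.317 to 2.52 in WT mice, so that these ranges nearly met. It was 1.62 ± 0.2325 in WT High P and 2.21 ± 0.239 in WT Veh. These WT ratios rest on few reads: Fcgr1 had 41 to 67 and Fcgr2b 39 to 74 in a WT Veh library. In a WT High P library they had 43 to 50 and 55 to 74. The ratio of Fcer1g to Fcgr3 overlapped, at 0.925 to 1.69 in 5xFAD mice and 0.662 to 1.865 in WT mice. Of the summed FPKM of the 4 receptors, Fcgr2b made up 15.2% ± 1.18 in 5xFAD Veh and 8.47% ± 1.73 in WT Veh, and Fcgr3 67.9% ± 3.53 in 5xFAD Veh and 69.6% ± 2.76 in WT Veh, the last with overlapping groups. These ratios were chosen with the fold changes known and are given without a test, and reads that fit both Fcgr2b and Fcgr3 enter them.

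Against Csf1r, a receptor that microglia require, Fcgr2b and Fcgr3 lay apart by genotype, and Fcgr1 and Fcer1g did not. Fcgr2b was at 0.0589 to 0.109 of the Csf1r level in 5xFAD mice and 0.0263 to 0.0387 in WT mice. Fcgr3 was at 0.309 to 0.449 of it in 5xFAD mice and 0.214 to 0.296 in WT mice. Fcgr1 was at 0.0604 to 0.115 of it in 5xFAD mice and 0.0417 to 0.0760 in WT mice, and Fcer1g at 0.358 to 0.523 in 5xFAD mice and 0.163 to 0.553 in WT mice. Against Cx3cr1, a microglial chemokine receptor gene, Fcgr3 overlapped too, at 0.386 to 0.695 in 5xFAD mice and 0.325 to 0.504 in WT mice, while Fcgr2b did not, at 0.0860 to 0.169 in 5xFAD mice and 0.0394 to 0.0667 in WT mice.

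**Figure D3:**
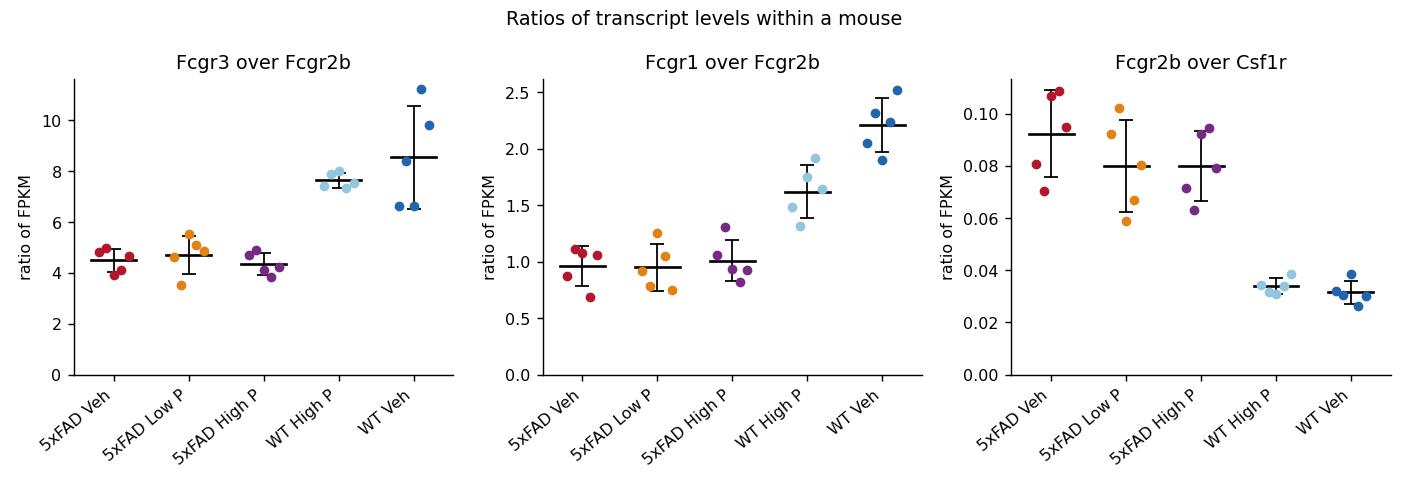
Ratios of FPKM within a mouse (linear axes from 0), one point per mouse, with group means and 1 SD. The Fcgr3 to Fcgr2b ratio lies at 3.51 to 5.52 in 5xFAD mice and 6.63 to 11.2 in WT mice, and the Fcgr2b to Csf1r ratio separates the genotypes the other way round.

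Genes that act below the activating receptors rose in part. In 5xFAD Veh against WT Veh, 2.83% of all genes tested were called higher, and 7 of 12 microglia markers rose (median log2 fold change 0.81). Of the activating signalling genes, 20 tested of 21 listed, 11 rose, none fell and 9 were not called, with a median log2 fold change of 0.58. The called genes with the highest mean level were Lyn, a Src-family kinase that phosphorylates ITAMs, at 3.39 ± 0.787 FPKM in 5xFAD Veh and 1.95 ± 0.273 in WT Veh (log2 fold change 0.65, adjusted p = 0.00809), and Vav1, an exchange factor for Rac, at 2.89 ± 0.188 FPKM in 5xFAD Veh and 0.801 ± 0.265 in WT Veh (1.40, adjusted p = 3.11e-07). Plcg2, the phospholipase downstream of Syk, was at 0.79 (adjusted p = 0.00067), the transcription factor gene Nfatc1 at 0.58, the GTPase gene Rac2 at 1.01 and the kinase gene Pik3cg at 0.64. Syk itself was at 0.826 ± 0.169 FPKM in 5xFAD Veh and 0.442 ± 0.101 in WT Veh and was not called (log2 fold change 0.49, adjusted p = 0.0925). Under high P in 5xFAD mice 18 of the 20 were below 0 (median -0.17), as were 49.4% of all genes tested, and none was called. There Vav1 had 1.67 ± 0.253 FPKM in 5xFAD High P and 2.89 ± 0.188 in 5xFAD Veh (log2 fold change -0.65, adjusted p = 0.741).

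On the inhibitory side, 2 of 9 tested of 11 listed genes rose and none fell, with a median of 0.26. They encode phosphatases that ITIMs recruit: Ptpn6, encoding SHP-1, at 4.20 ± 0.912 FPKM in 5xFAD Veh and 1.00 ± 0.349 in WT Veh (log2 fold change 1.66, adjusted p = 1.26e-06), and Inpp5d at 4.08 ± 0.285 FPKM in 5xFAD Veh and 2.25 ± 0.260 in WT Veh (0.74, adjusted p = 2.82e-05). Under high P in 5xFAD mice 7 of the 9 inhibitory genes were below 0 (median -0.10) and none was called. Tyrobp, the other ITAM adaptor of microglia, and 3 receptors that pair with it, Trem2, Siglech and Clec5a, rose in 5xFAD Veh against WT Veh. They were 4 of 4 tested of 7 listed. Tyrobp averaged 41.2 ± 12.7 FPKM in 5xFAD Veh and 6.48 ± 1.69 in WT Veh (log2 fold change 2.57, adjusted p = 9.47e-09), and Trem2 14.7 ± 2.70 in 5xFAD Veh and 2.17 ± 0.564 in WT Veh (2.51, adjusted p = 2.44e-10). Siglech was at 0.66 and Clec5a at 1.00 on the log2 scale.

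**Figure D4:**
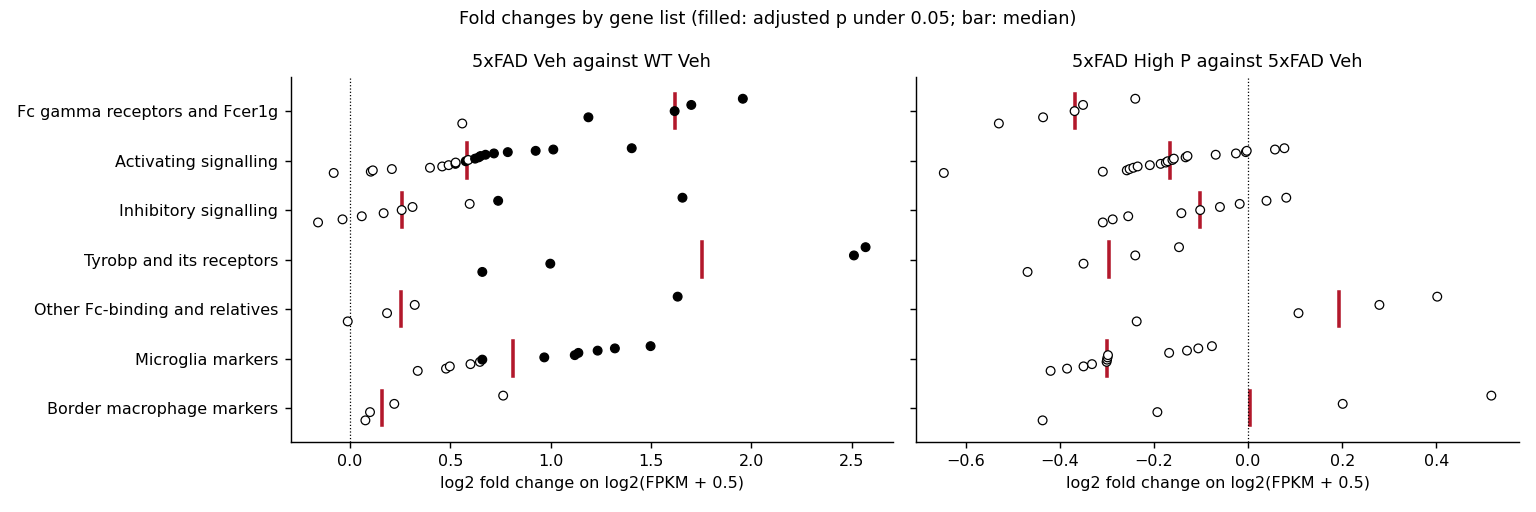
Log2 fold changes of the 5 genes and of 6 gene lists, one point per tested gene, on the left for 5xFAD Veh against WT Veh and on the right for 5xFAD High P against 5xFAD Veh (the x scales differ). Filled points passed an adjusted p under 0.05 and the vertical bars are medians; 11 of 20 activating signalling genes are filled on the left and none on the right.

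Other Fc-binding receptors and their relatives did not follow as a group. Of 12 listed, 4 were tested and 1 rose, Fcrls, a microglial Fc receptor-like gene, at 26.7 ± 5.26 FPKM in 5xFAD Veh and 8.24 ± 1.44 in WT Veh (log2 fold change 1.63, adjusted p = 1.33e-08). Fcgrt, the neonatal Fc receptor that recycles IgG, was at 6.18 ± 0.951 FPKM in 5xFAD Veh and 5.41 ± 1.01 in WT Veh (adjusted p = 0.682), and the cytosolic antibody receptor gene Trim21 was not called either (adjusted p = 0.428). The 7 listed partners of the gamma chain outside the family, such as the platelet collagen receptor Gp6 and the IgE receptor chain Fcer1a, were all under the filter, with a summed FPKM of at most 0.594 in any library.

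Of 11 listed ligand genes, 3 passed the filter and none was called. Ighm, the IgM heavy chain gene, averaged 21.5 ± 7.71 FPKM in 5xFAD Veh and 16.4 ± 7.49 in WT Veh (log2 fold change 0.45, adjusted p = 0.693), and Ighg2c, an IgG heavy chain gene, 4.60 ± 0.824 in 5xFAD Veh and 3.73 ± 0.817 in WT Veh (0.275, adjusted p = 0.751). In 5xFAD Veh the mean of Ighm per length was above that of Fcer1g, and that of Ighg2c above those of Fcgr1 and Fcgr2b. The other IgG heavy chain genes listed were nearly unread: Ighg1 was at 0 reads in 21 of 25 libraries and Ighg2b in 20, and Ighg3 averaged 0.0183 FPKM over all libraries. Igkc reached a high value in a single 5xFAD High P library, whose summed B and plasma cell markers came to 14.8 FPKM, against at most 2.03 in any other group's libraries. IgG protein made outside the brain would not appear as RNA here. Of the monocyte markers, Ccr2 and Ly6c2 had at most 0.146 and 0.302 FPKM, while Vcan averaged 1.52 and Cd209a 0.4615 FPKM over all libraries, and the list summed to 2.04 to 3.21 FPKM in 5xFAD Veh and 1.95 to 2.74 in WT Veh. Ms4a1 of B cells was at 0 in 21 of 25 libraries. Of the mast cell markers, Cpa3 was at 0 in 22 libraries, while Kit, which neurons of the brain are also known to express, averaged 6.45 FPKM, and the list summed to 5.06 to 6.49 FPKM in 5xFAD Veh and 6.18 to 8.43 in WT Veh. Neither Vcan, Cd209a nor Kit was called in this comparison. Border macrophage markers summed to 2.27 to 5.63 FPKM in 5xFAD Veh and 1.97 to 3.29 in WT Veh, with none of 4 tested called. Of the neutrophil markers, S100a8 and S100a9 had at most 1.67 and 2.69 FPKM and neither was called.

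Across the 25 libraries, Fcgr3 and Fcgr2b varied together most among the members (Pearson r = 0.985 on log2 values, and 0.743 once group means were removed), and Fcgr4 varied least with the rest (0.435 to 0.525). Once group means were removed, the lowest values were those of Fcer1g (0.13 with Fcgr2b to 0.400 with Fcgr4) and of Fcgr4 (0.171 to 0.400), and Fcer1g correlated with Fcgr3 at 0.295, against 0.928 before. Among the genes whose pattern was most like Fcgr3 were Mpeg1 (r = 0.979, 0.648 without group means) and Tent5c (0.977 and 0.734). Among those most like Fcgr2b were Mpeg1 (0.981 and 0.685) and the integrin gene Itgax (0.973 and 0.483), and most like Fcgr1 were Mpeg1 (0.959 and 0.656), Csf3r (0.956 and 0.593) and Ptprc (0.954 and 0.600). For Fcer1g they were Ly9, Tent5c and Itgax (0.949 to 0.950), and for Fcgr4 Rin2, Slc2a10 and Fyb (0.657 to 0.700), the last resting on few reads. These correlations are descriptions over 25 libraries in which the genotype moves many genes at once and all genes share a library's depth. Fcgr3 and Fcgr2b are also the only pair of members that shares a stretch of 50 bases. The part of reads that fit both genes in their correlation was not tested.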

How the data were processed

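RNA of 25 mouse cortices was sequenced from poly(A)-selected, strand-specific libraries, per the labels' protocols. HISAT2 and mm10 are named in the submitters' processing notes, which say nothing here of how reads were counted or of the annotation. The authors deposited FPKM per gene, with gene lengths. Multiplied by length, 100% of the values above 0 were whole multiples of a step per library (tolerance 0.01, largest distance 1.2e-05), so that reads could be recovered. A gene was tested when 5 or more libraries reached 0.5 FPKM, which kept 16450 of 54532, and log2(FPKM + 0.5) was fitted in limma 3.58.1 (R 4.3.3) with a mean per group, 20 residual degrees of freedom, an intensity trend and 7 contrasts. Each group was 5 mice. Fold changes are the first-named group minus the second. The fit was tested on simulated data with known changes. The members, the 15 gene lists (132 genes) and the tests were chosen with earlier results of these data known. Lists are described by counts, with values for at most 6 genes in order of mean FPKM among those called in 5xFAD Veh against WT Veh, and the 3 protein-coding genes with the highest correlation were named for each member, apart from results that are not reported here. A few not called were named besides: Syk, Fcgrt and Trim21, after their values were seen. Alternatives comprised 12 settings and leaving out each of the 25 libraries. No 2 libraries of a group agreed within sampling noise (smallest chi-square per gene 8.46). Promoter sequences are RefSeq's on GRCm38.p6 and transcripts GENCODE M21's; all 5 genes matched by symbol.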

Additional observations from a re-analysis of the deposited data

How the results depend on the processing

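Over 37 alternatives, the 4 of 5 members called in 5xFAD Veh against WT Veh and in 5xFAD High P against WT High P stayed 4, and the counts of 0 in the other comparisons stayed 0, except that without 5xFAD Veh replicate 2 the count in 5xFAD High P against 5xFAD Veh was 1 (Fcgr3), so that leaving out a library gave 0 to 1. Leaving out single libraries moved the Fcgr3 log2 fold change there between -0.61 and -0.44. The reversals were of values that were never called, with main values within 0.1 of 0 but for Fcgr4 in 5xFAD High P against 5xFAD Low P (0.22), and their cause was not tested. For 5xFAD High P against 5xFAD Low P, Fcer1g was 0.008 with array weights, 0.078 without the libraries high in Ttr and -0.125 to 0.066 without single libraries; Fcgr1 was 0.021 with array weights and 0.007 without the libraries high in Ttr, and Fcgr4 -0.07 without the libraries high in Ttr. For the interaction, Fcer1g was -0.033 with array weights and -0.112 to 0.143 without single libraries, and Fcgr4 was 0.033 with a pseudocount of 0.1, 0.151 with voom and -0.251 to 0.141 without single libraries. With a filter of 1 FPKM Fcgr4 was not tested.

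Counts over all genes moved more. In 5xFAD High P against 5xFAD Veh, 0 genes were called with no filter, with voom or without the libraries high in Ttr, and 0 to 2 without single libraries. In 5xFAD High P against 5xFAD Low P it was 0 to 2 without single libraries, in 5xFAD Low P against 5xFAD Veh 2 with no filter, and in 5xFAD Veh against WT Veh 811 with array weights. In 5xFAD High P against WT High P the counts were 517 with only those groups fitted, 970 with array weights and 131 without the libraries high in Ttr. In WT High P against WT Veh they were 0 with no filter, 1513 with only those groups, 3371 with array weights, 14 with a GC correction, 829 with sex as a covariate, 0 without the libraries high in Ttr, and 0 to 2724 without single libraries. For the interaction they were 9 with array weights, 1 without the libraries high in Ttr and 0 to 1 without single libraries. Across these alternatives the scaling moved the median of all genes by less than 0.1.

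Over 10 pairs of groups, same-numbered mice correlated in their deviations from the group means at -0.379 to 0.273, and in no pair of groups did every correlation exceed 0.1, so the numbers were not taken to pair the samples. The highest mean was 0.107, for 5xFAD High P and 5xFAD Veh (-0.026 for other numbers). There 3 of 5 high-dose mice correlated best with their own number, and the numbers carry sex. In part the numbers also carry the slope on GC content. From replicate 1 to replicate 5 it fell from 0.405 to 0.0313 in WT Veh and from 0.448 to 0.0660 in 5xFAD Veh. It fell from 0.512 to 0.2415 in 5xFAD High P and rose from 0.0400 to 0.493 in 5xFAD Low P. WT High P had no steady order. Same-numbered 5xFAD Low P mice correlated at means of -0.119 with 5xFAD Veh and -0.182 with WT Veh. With 5xFAD High P the mean was -0.062 and with WT High P 0.031. The part of the slope was not tested. With the replicate block, 218 genes were called in WT High P against WT Veh in place of 522, and the counts of members called were unchanged (4 and 4 in the genotype comparisons). Depth limits Fcgr4, at 0 to 29 reads a library, most.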
